A study of Mus musculus with 72 samples.

Results

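Chemokines are small secreted or membrane-bound proteins that attract leukocytes, and their receptors sit on the cells that respond. The genes described here are those whose platform gene symbol starts with Ccl, Cxcl, Ccr, Cxcr or Xcl followed by a digit, together with Xcr1, Cx3cl1 and Cx3cr1. Names starting with Ccrl or Ccrn were left out. The symbols of 82 probe sets met this rule, out of 45037 probe sets other than controls. Of the 82, 78 carried 1 symbol and 4 carried several, and these 4 are counted but not named. The 82 probe sets covered 50 genes, 33 ligands and 17 receptors. The rule used symbols and no measured value, but it was set with earlier results of these data known.

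All animals were female SAMP1 mice, a senescence-accelerated strain, and no group of another strain was included. They entered the study at 4 weeks of age under specific pathogen-free conditions, 3 to 6 to a cage, and kept the same grouping throughout. For 6 or 14 months they received a control diet, or the oxidised (Q10) or reduced form (QH2) of coenzyme Q10 at about 500 mg per kg body weight per day, and were killed at 7 or 15 months of age. RNA of liver, kidney, heart and brain from 3 mice per diet and duration was hybridised to 72 Affymetrix arrays, 18 per tissue. Duration of feeding and age cannot be told apart, and the labels do not say which mice shared a cage.

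CC and CXC chemokines form the main subfamilies, named after the spacing of their first cysteines, and act through G protein-coupled receptors. Some are made steadily and place leukocytes in healthy tissue, such as Cxcl12, while others are induced during inflammation, such as Cxcl9 and Cxcl10. Cxcl13 attracts B cells through Cxcr5, Ccl5 attracts T cells and macrophages, and in brain Cx3cl1 is made by neurons and read by microglia through Cx3cr1.

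All values are hybridisation signals after quantile normalisation of the 18 arrays of a tissue, and a difference is on the scale of log2(signal + 1), given ± its standard error, with n = 3 arrays per group. A probe set was tested in a tissue when its mean signal there lay above the 40th percentile of all probe sets, and is said to have risen or fallen only where limma's adjusted p was under 0.05. Arrays are named by diet, months and replicate number. As deposited, liver arrays had a mean signal of 85.8 to 174 and heart arrays one of 109 to 281. The Actb 3' to 5' signal ratio, a sign of RNA integrity that climbs as RNA degrades, was 1.59 to 7.36 on liver arrays, at most 3.37 on those of kidney, and no higher than 2.22 for heart or 1.95 for brain. All 6 liver, 6 kidney, 6 heart and 5 brain markers read higher on every array of their own tissue than on any array of the others.

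The tissues differed in which chemokine genes passed the filter. It is a rank cut that 27022 of the 45037 probe sets pass in every tissue, and not a test of detection. Heart had the most, with 50 of the 82 probe sets past the filter (61.0%), standing for 34 named genes. Kidney had 45 (54.9%, 28 genes), liver 42 (51.2%, 27 genes) and brain 30 (36.6%, 19 genes). The heart share was near that of all probe sets, and the other tissues lay below it. Receptors above the threshold in liver were Ccr1, Ccr2, Ccr6, Cx3cr1, Cxcr3, Cxcr4, Cxcr5 and Cxcr6. Kidney added Xcr1 to these, and heart added Ccr10 and Ccr1l1. In brain only Ccr6, Cx3cr1, Cxcr3 and Cxcr4 passed. A probe set passes through its mean over all groups, so some members of the tested set were bright in 1 group alone.

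In a fit over all 72 arrays normalised together, 39 chemokine probe sets were tested, and each tissue was set against the mean of the other 3. The design describes 3 mice per diet and duration with 4 tissues each, and the labels do not tie the arrays of 1 mouse together. The fit took all arrays as independent, so its p-values leave out what tissues of 1 mouse share. Liver differed at 35 of them (84.7% of all 27022 probe sets tested were called), kidney at 31 (75.6%), heart at 33 (83.4%) and brain at 36 (87.4%), so such calls were near the general share. Ccl9, a macrophage-derived ligand of Ccr1, had signals of 953 to 2134 over the 18 liver arrays, with a median of 1515. Its 18 kidney arrays read 6.47 to 76.2, its heart arrays 104 to 284 and its brain arrays 26.4 to 38.0. No liver array overlapped with another tissue, and Ccl9 was higher in liver by 5.01 ± 0.084 (limma adjusted p = 3.2e-49). Cxcl9, an interferon gamma-induced ligand of Cxcr3, was also higher in liver (4.27 ± 0.27) and the neutrophil attractant Cxcl1 was higher there by 2.02 ± 0.10 at its brightest probe set.

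Brain had its own set. Cx3cl1 read 757 to 1968 over the 18 brain arrays, against 2.41 to 36.2 in liver, 128 to 212 in kidney and 26.6 to 106 in heart. Its receptor Cx3cr1 read 172 to 235 in brain, 28.2 to 58.5 in kidney and at most 51.3 in liver and 72.2 in heart. The brain ranges of this ligand and receptor stood clear of every other tissue, and brain was higher by 4.61 ± 0.13 for Cx3cl1 and 3.12 ± 0.15 for Cx3cr1 (limma adjusted p = 1.15e-38 and 1.95e-27). Ccl27a, known for T cell homing to skin, was higher in brain by 2.44 ± 0.066, and Cxcl14, a steadily made chemokine of epithelia and brain, by 3.67 ± 0.17 at its brighter probe set in brain. The other Cxcl14 probe set read 198 to 305 in brain and 99.4 to 217 in heart, with overlap. Cxcl9 and Cxcl16 were lower in brain, by -4.56 ± 0.27 and, at the brighter Cxcl16 probe set, -2.68 ± 0.14.

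Other ligands were higher in kidney or heart. Cxcl16, a membrane-bound ligand of Cxcr6, was higher in kidney by 2.06 ± 0.14 (97.4 to 269, with liver up to 188). Ccl28, an attractant of lymphocytes to mucosa, was higher in kidney by 2.10 ± 0.13 (43.4 to 410, with brain up to 55.0). Ccl6, a second macrophage-derived ligand of Ccr1, was higher in heart by 1.84 ± 0.12 (143 to 621, with liver at 53.2 to 1308). Each of these ranges overlapped with that of another tissue. Cxcl12, which holds leukocytes and progenitors through Cxcr4, was bright in all 4 tissues, but its probe sets disagreed. In heart 1 probe set gave 1.40 ± 0.063 and the other -0.72 ± 0.057, and in kidney the order was turned, with -0.62 ± 0.063 and 1.33 ± 0.057. No order of the tissues can be given for Cxcl12.

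In liver, a small set of ligands was higher after 14 months of Q10 than after the control diet: Cxcl13, Ccl5, Cxcl9, Cxcl16 and Ccl6. Of the 42 probe sets tested 7 rose and 0 fell, where 3.88% of all probe sets tested rose, 2.33% fell and 6.21% were called in either direction. The median difference was 0.34 over the 42 chemokine probe sets, 27 of which were positive, against -0.10 over all tested. Over all 82 it was 0.27, with 50 positive. No receptor rose. With the values as deposited 97.7% of all calls in this comparison were higher, against 62.5% after quantile normalisation.

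Cxcl13 read 103, 4421 and 5090 in the 3 liver arrays of Q10 at 14 months. The 3 control arrays of that age read 18.7, 7.54 and 22.5, and the 3 QH2 arrays 8.52, 29.4 and 16.2. Every Q10 array lay above every control and QH2 array, with array 1 far below the other Q10 arrays. The rise was 6.39 ± 0.94 (95% interval 4.44 to 8.35, limma adjusted p = 0.000704), and the second Cxcl13 probe set rose by 5.67 ± 0.84 (limma adjusted p = 0.000823). Its receptor Cxcr5, a marker of B cells and follicular T cells, read 16.5, 50.2 and 20.3 on Q10 against 7.65, 6.17 and 10.2 on control, without overlap, and did not pass the test.

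Ccl5 read 90.4, 295 and 356 on Q10, against 12.0, 2.17 and 6.01 on control. No array overlapped, and Ccl5 rose by 5.01 ± 0.68 (95% interval 3.58 to 6.43, limma adjusted p = 0.00052). The control mean of 6.74 lay below the filter threshold of 7.34 in liver, so the size leans on the offset: with 16 added in place of 1 before log2 it was 3.37.

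Among the interferon-induced ligands of Cxcr3, Cxcl9 read 245, 3060 and 620 on Q10 and 84.2, 52.9 and 172 on control. It rose by 3.07 ± 0.61 (limma adjusted p = 0.0062), with Q10 array 2 far above the rest. The dimmer Cxcl9 probe set was not called between diets or durations in liver. Cxcl10 read 32.5, 201 and 51.2 against 20.2, 27.7 and 22.5, and Cxcl11 21.2, 49.7 and 27.5 against 38.2, 27.6 and 36.8, and neither passed. Cxcr3 itself, found on activated T cells, read 21.2, 30.7 and 42.9 on Q10 and 22.2, 20.3 and 19.9 on control, with overlapping groups.

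Ccl6 read 156, 133 and 1059 on Q10 and 82.5, 27.9 and 71.0 on control. Q10 array 3 stood out here, where array 2 stood out for Cxcl9. Ccl6 rose by 2.34 ± 0.57 (limma adjusted p = 0.0216) and at its second probe set by 2.99 ± 0.69 (0.0153). Cxcl16 rose by 1.57 ± 0.34 (limma adjusted p = 0.011) at 1 probe set, with signals of 30.4, 97.4 and 41.2 against 15.8, 16.8 and 15.6, while its brighter probe set overlapped between the groups (25.0, 110 and 50.7 against 23.0, 16.9 and 37.8) and did not pass. Ccr2, the monocyte receptor of Ccl2, read 30.0, 80.8 and 31.8 on Q10 against 27.3, 13.7 and 16.2, and Cxcr4 read 9.10, 140 and 49.9 against 12.0, 9.22 and 13.9. Ccl9 did not follow Ccl6 in liver: it read 1173, 1820 and 726 on Q10 and 1029, 990 and 1062 on control.

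**Figure D1:**
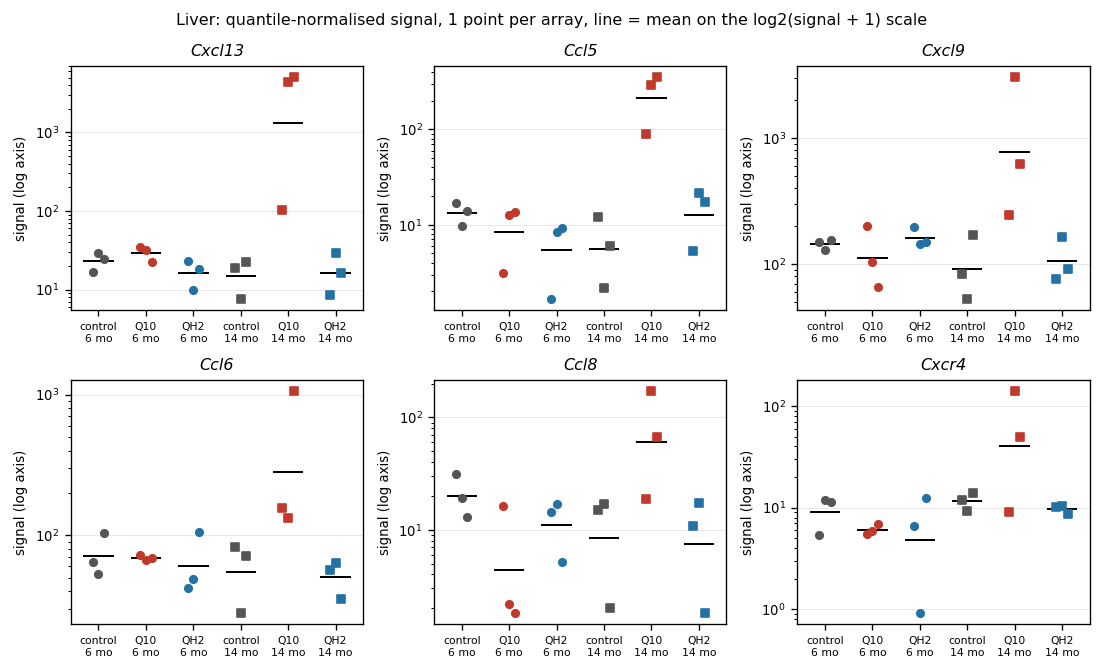
Liver signals of Cxcl13, Ccl5, Cxcl9, Ccl6, Ccl8 and Cxcr4, 1 point per array on a log axis, with circles for 6 and squares for 14 months, grey for control, red for Q10 and blue for QH2, and a line at each group's mean of log2(signal + 1). The 3 squares of Q10 lie above all other squares for Cxcl13, Ccl5 and Cxcl9, and Cxcl13 runs from 103 to 5090 within that group.

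Signal of leukocyte markers moved with these ligands on the same arrays. The summed signal of 16 macrophage markers was 8673 to 27122 in the Q10 livers at 14 months, 1382 to 3205 on control and 1882 to 3072 on QH2. Of the 16, 15 rose, where 3.88% of all probe sets tested rose. The sum of 9 B cell markers was 273, 3757 and 1051 on Q10 against 85.2 to 125 on control, and 6 of 7 tested rose. The 9 neutrophil markers summed to 359, 15070 and 5801 against 132 to 699, and 14 T and NK cell markers to 195, 376 and 356 against 86.8 to 100.1. The Actb ratio was 3.05, 1.59 and 1.98 in those Q10 arrays, 3.49 to 4.11 on control and 3.67 to 7.36 on QH2. The part of these markers and of RNA integrity in the ligand rises was not tested, and in bulk tissue fewer or more cells of a type and less or more RNA per cell cannot be told apart. All 7 calls were lost with the Actb ratio as a covariate, with only the groups compared in the fit, and without Q10 arrays 2 and 3. Leaving out 1 array in turn, Cxcl13, Ccl5 and Cxcl9 were called in 6 of 6 fits, Ccl6 was lost without control array 2 or Q10 array 3, and Cxcl16 without Q10 array 2, and the count ran from 5 to 16.

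Of the genes that act beside the chemokines in the Q10 livers some rose and most did not pass, where 3.88% of all probe sets rose. Of 8 chemokine family genes under other names 3 rose, among them the platelet chemokines Pf4 (2.81 ± 0.57) and Ppbp (4.45 ± 1.0). Of 27 chemokine receptor signalling genes 11 rose, led by the small GTPase Rac2 of leukocyte migration (4.01 ± 0.56) and Rgs2, a brake on G proteins (2.13 ± 0.30). Of 12 adhesion and homing genes 6 rose, among them the leukocyte integrin Itgb2 (3.86 ± 0.60) and the endothelial ligands Icam1 (2.30 ± 0.42) and Vcam1 (2.28 ± 0.43). Of 13 inducers of chemokines 6 rose, with Nfkbia, the inhibitor of NF-kappa B, at 1.06 ± 0.21 and interleukin 1 beta, Il1b, at 1.99 ± 0.47. None of the members of these 4 lists fell. All 4 lists were drawn up with earlier results of these mice known.

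The start regions of Cxcl13 and Cxcl9, which rose together, and of Cxcl10, which did not pass, are shown because Cxcl9 and Cxcl10 are known targets of interferon and NF-kappa B, and Cxcl13 lies on the same chromosome. The 250 bases before each start, from RefSeq on GRCm38.p6, were searched on both strands for the NF-kappa B consensus, by its name, and for an interferon response element spelled GAAA, any 2 bases, then GAAA, and matches are in capitals. Of 32851 windows of this length 3.9% held the first and 2.98% the second. Of 41 windows of 37 chemokine genes 8 held the first and 2 the second. The windows printed are Cxcl13 at chr5:95956689-95956938 (plus strand), Cxcl9 at chr5:92328080-92328329 and Cxcl10 at chr5:92348890-92349139 (both minus strand), all read 5' to 3'.
Cxcl13: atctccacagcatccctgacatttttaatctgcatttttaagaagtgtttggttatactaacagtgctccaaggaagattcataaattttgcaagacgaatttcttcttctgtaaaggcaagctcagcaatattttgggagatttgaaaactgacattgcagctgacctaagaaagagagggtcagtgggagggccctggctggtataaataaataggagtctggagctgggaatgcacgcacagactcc
Cxcl9: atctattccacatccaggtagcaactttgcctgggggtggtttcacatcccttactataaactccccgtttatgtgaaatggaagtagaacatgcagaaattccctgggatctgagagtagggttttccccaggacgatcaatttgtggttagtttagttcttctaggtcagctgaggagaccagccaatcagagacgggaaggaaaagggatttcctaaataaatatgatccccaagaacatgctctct
Cxcl10: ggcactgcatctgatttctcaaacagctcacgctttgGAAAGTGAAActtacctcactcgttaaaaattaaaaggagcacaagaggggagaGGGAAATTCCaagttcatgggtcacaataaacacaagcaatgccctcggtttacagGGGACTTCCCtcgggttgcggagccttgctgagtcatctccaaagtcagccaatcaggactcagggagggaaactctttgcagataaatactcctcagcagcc

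Only the Cxcl10 window of these 3 held a match, with 1 interferon and 2 NF-kappa B matches that do not overlap each other. Cxcl10 did not pass in liver on Q10 against control, where Cxcl9 and Cxcl13 did. A looser NF-kappa B spelling, GGG and CC with any 5 bases between them, was in all 3 windows, in 23 of the 41 chemokine windows and in 45.8% of all, and is not capitalised. A match is a string of letters and not a measured site, and a window without one says nothing of either factor.

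After 14 months of QH2 no liver chemokine probe set was called against control. By limma 0 of 42 were called (0% of all probe sets), and 1 of 42 had an unadjusted p under 0.05, where 6.19% of all did. The smallest p belonged to Ccl25, a ligand of gut homing T cells, with 8.52, 2.36 and 6.76 against 11.8, 11.5 and 17.8 (-1.20 ± 0.52, limma adjusted p = 0.771) at the dimmer of its probe sets. Cxcr3 (-0.62 ± 0.31), Ccl27a (0.49 ± 0.28) and 1 probe set with several symbols followed. Ccl5, at 1.05 ± 0.68 (0.896), was next. The 95% intervals ran from -1.28 to 0.03 for Cxcr3 and from -0.10 to 1.08 for Ccl27a.

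The reduced and oxidised forms were then compared directly at the same dose and duration. Which mice shared a cage is not known, and RNA integrity differed between these groups of liver arrays, as given beside the values. At 14 months 10 liver probe sets were lower on QH2 than on Q10 and 3 higher, of 42, where 4.93% of all fell and 4.81% rose, 9.74% together. This comparison shares its Q10 arrays with that of Q10 against control. Cxcl13 was lower by -6.28 ± 0.94 (95% interval -8.24 to -4.32, limma adjusted p = 0.00089), Ccl5 by -3.96 ± 0.68 (0.00203) and Cxcl9 by -2.87 ± 0.61 (0.00805), and these were called in 6 of 6 fits with 1 array left out. All 3 were lost with the Actb ratio as a covariate, where Cxcl13 was at -2.003, Ccl5 at -2.14 and Cxcl9 at -0.44 (limma adjusted p = 0.9998 each). They were lost too with only the groups compared and without Q10 arrays 2 and 3. The Actb ratio was 1.59 to 3.05 on Q10 and 3.67 to 7.36 on QH2, and the summed B cell markers were 122 to 174 on QH2 against 273 to 3757. Both Ccl6 probe sets (-2.45 ± 0.57 and -2.55 ± 0.69) and the dimmer Cxcl16 probe set (-1.29 ± 0.34) were lower too. The brighter Cxcl16 probe set did not pass.

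Members not called against control joined here. Cxcr3 read 14.4, 12.6 and 12.6 on QH2, below every Q10 array, and was lower by -1.15 ± 0.31 (limma adjusted p = 0.0266). Ccr2 was lower by -1.73 ± 0.53 (0.0438), at 1 probe set alone. Ccl8, a monocyte attractant, was lower by -2.85 ± 0.88 (0.0467), with 10.8, 17.3 and 1.82 on QH2 and 18.6, 172 and 66.6 on Q10. Ccl27a was higher, with 98.8, 75.8 and 75.6 against 68.7, 24.4 and 41.6 (0.99 ± 0.28, 0.0329), as were 2 probe sets with several symbols. Leaving out Q10 array 2 or 3, or QH2 array 1 or 3, each ended several of these calls, among them Cxcr3 and Ccr2, and the count ran from 4 to 17. Ccl27a was called in 1 of 6 such fits, lost also without QH2 array 2, and it turned to -0.0023 with the Actb ratio as a covariate. With each array scaled to its 75th percentile 72.5% of all calls in this comparison were higher, with quantile normalisation 49.4%, and with the values as deposited 3.47%.

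At 6 months no liver chemokine probe set was called for either form of the compound. By limma 0 of 42 probe sets were called for QH2 against control (0% of all; 0 at an unadjusted p under 0.05), 0 for Q10 against control (0.81% of all; 1 at an unadjusted p under 0.05) and 0 for QH2 against Q10 (0.988%; 2). For Q10 against control the smallest p was that of Ccl8, with 16.1, 2.17 and 1.81 against 31.6, 19.0 and 12.9 (-1.97 ± 0.88, limma adjusted p = 0.488). Cxcl13 read 35.1, 32.2 and 22.7 on Q10 at this time and 16.7, 29.3 and 24.2 on control. The steadily made Cxcl12 was 0.31 ± 0.16 above control on Q10 and 0.30 ± 0.16 on QH2, and Ccr1 1.25 ± 0.69 and 1.26 ± 0.69, with overlap in each. A dimmer Ccr2 probe set on Q10 (-0.82 ± 0.53), and Ccl25 (0.82 ± 0.46) and Ccl28 (-0.82 ± 0.47) on QH2, came next. Between the forms the smallest p was that of Cxcl11 (-1.78 ± 0.66, limma adjusted p = 0.272), before Ccr6 (1.64 ± 0.78), the same Ccr2 probe set (0.91 ± 0.53) and Cx3cl1 (0.99 ± 0.63).

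Across durations, the liver ligands rose on Q10 and were not called on the other diets. On Q10 10 probe sets were higher at 14 than at 6 months and 2 lower (5.88% and 6.59% of all, 12.5% together). By limma 0 were called on control (7.36% of all; 2 at an unadjusted p under 0.05) and 0 on QH2 (2.35%; 4). Ccl5 rose by 4.51 ± 0.68, Cxcl13 by 5.44 ± 0.94 and Cxcl9 by 2.79 ± 0.61, each in 6 of 6 fits with 1 array left out. All 3 were lost with only the groups compared and without Q10 14-month arrays 2 and 3. With the Actb ratio as a covariate Cxcl13 (3.27) and Cxcl9 (1.55) were lost and Ccl5 (3.59) was kept. On Q10 the macrophage sum was 2930 to 5769 and the Actb ratio 3.10 to 3.75 at 6 months, against 8673 to 27122 and 1.59 to 3.05 at 14 months. The part of the markers in these rises was not tested. Ccl8 (3.52 ± 0.88), Ccr2 (2.01 ± 0.53, at 1 probe set alone), Cxcl10 (1.92 ± 0.54) and Cxcr4 (2.56 ± 0.74, limma adjusted p = 0.0295) rose as well, and each was lost without Q10 14-month array 2. Ccl6 (2.00 ± 0.57) was lost without Q10 14-month array 3, and so was Cxcr4. Of the 6-month arrays, leaving out any ended the calls of Cxcr4 and Ccl6, array 2 or 3 that of Ccl8, array 1 or 2 that of Cxcl10, and array 3 that of Ccr2. Cxcl12 fell by -0.50 ± 0.16 at its brightest probe set, from 640, 482 and 608 to 424, 335 and 468, and this was lost without Q10 14-month array 2 or 6-month array 1 or 3. Of 11 other settings 4 kept the call. It was lost, among others, with the values as deposited, without a filter and with the Actb ratio as a covariate. The second bright Cxcl12 probe set did not pass. On control the smallest p values were those of the brighter Ccl25 probe set (1.12 ± 0.46, limma adjusted p = 0.152), Ccl9 (-0.53 ± 0.23), the dimmer Cxcl16 probe set (-0.68 ± 0.34) and Ccl28 (-0.92 ± 0.47). On QH2 they were those of the dimmer Ccl25 probe set (-1.74 ± 0.52, 0.0893), Ccl4 (-0.94 ± 0.38), Cxcr3 (-0.71 ± 0.31) and the dimmer Cxcl16 probe set (-0.75 ± 0.34). The count on Q10 ran from 5 to 19, and with the values as deposited 95.8% of all calls on Q10 were higher, against 47.1%.

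The difference itself was tested as an interaction. The Q10 effect at 14 months exceeded that at 6 months for Ccl5 (5.61 ± 0.96, limma adjusted p = 0.00538), both Cxcl13 probe sets (5.64 and 6.04) and Cxcl9 (3.44, 0.042), 4 of 42, where 2.33% of all were called. Ccl5 was called in 12 of 12 fits with 1 array left out, and was lost with the Actb ratio as a covariate (4.14, limma adjusted p = 0.336) and without Q10 14-month arrays 2 and 3 (4.37, 0.149). The Cxcl13 and Cxcl9 calls were lost in these fits as well, without the intensity trend and with only the groups compared. For the brighter Cxcl13 probe set 7 of 12 fits kept the call, which was lost without Q10 6-month array 2 or 3, control 14-month array 2, or Q10 14-month array 2 or 3. Cxcl9 kept it in 3 of 12, lost without any control array of 6 months, control 14-month array 1 or 2, or Q10 array 2 or 3 of either duration. The dimmer Cxcl13 probe set kept it in 9 of 12, lost without Q10 6-month array 2, control 14-month array 2 or Q10 14-month array 3. The count ran from 1 to 13. For QH2 the interaction gave 0 calls by limma (0% of all, and 2 members at an unadjusted p under 0.05). The dimmer Ccl25 probe set (-2.14 ± 0.74, adjusted p = 0.718), Ccl5 (2.21 ± 0.96), Cx3cr1 (1.94 ± 0.94) and Cxcr3 (-0.84 ± 0.44) were in front.

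In kidney the larger movement was between 6 and 14 months, on the control diet as well as on Q10. On control 9 probe sets of 45 rose and 1 fell (4.72% and 4.67% of all, 9.38% together). The risers were the B cell attractant Cxcl13 and its receptor Cxcr5, Ccl5, Cxcl9, the monocyte attractants Ccl8 and Ccl12, Ccl28, and the receptors Cxcr4 and Ccr6, and Cxcl16 fell. The median over the 45 was 0.23, against -0.02 over all tested, and 30 of the 45 were positive.

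Kidney Cxcl13 read 22.8, 18.4 and 15.3 at 6 months and 289, 97.6 and 372 at 14 months on control. The groups did not overlap, and it rose by 3.49 ± 0.74 (limma adjusted p = 0.0091), in 6 of 6 fits with 1 array left out. The second Cxcl13 probe set did not pass on control. Cxcr5 moved from 9.53, 5.55 and 5.53 to 29.8, 14.6 and 43.6 (1.86 ± 0.57, limma adjusted p = 0.0491). Array 2 of the 14-month controls was the lowest for this ligand and its receptor.

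Ccl5 read 12.9, 3.52 and 0.967 at 6 months, where its mean of 5.78 lay below the kidney threshold of 11.5, and 289, 43.6 and 410 at 14 months (5.13 ± 1.2, limma adjusted p = 0.0132). Ccl8 moved from 33.2, 27.4 and 21.3 to 209, 89.9 and 172 (2.42 ± 0.60, 0.0187). Cxcl9 moved from 33.0, 18.1 and 6.10 to 275, 42.4 and 254 (3.12 ± 0.93, 0.0434), at its brighter probe set alone. Array 2 was again lowest in each at 14 months, without reaching the 6-month range. Cxcr4 moved from 40.1, 33.1 and 32.8 to 102, 53.5 and 98.5 (1.19 ± 0.32, 0.0262) and Ccl28 from 96.2, 50.8 and 44.5 to 196, 111 and 230 (1.49 ± 0.40, 0.029). Ccl12 (2.03 ± 0.58) and Ccr6, the receptor of Ccl20 on B and T cells (1.62 ± 0.46), rose too.

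Cxcl16 was the exception in direction, with 289, 248 and 279 at 6 months and 154, 154 and 173 at 14 months, a fall of -0.76 ± 0.20 (limma adjusted p = 0.0233). It was -0.34 and not called with the values as deposited, where the median over all probe sets moved by 0.44. Its second probe set did not pass on control. All 10 calls but Cxcl13 were lost without control 14-month array 1, so that the count ran from 1 to 12. Ccl5 and Ccl8 were lost also without 14-month array 3 or 6-month array 3, and Ccl28, Cxcl9 and Cxcr4 without these or 6-month array 2. Ccl12, Ccr6 and Cxcr5 were lost without any array but 14-month array 2. Cxcl16 was lost also without 14-month array 2 or 6-month array 1 or 3. Of all calls in this comparison 50.3% were higher, and 99.2% with the values as deposited.

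**Figure D2:**
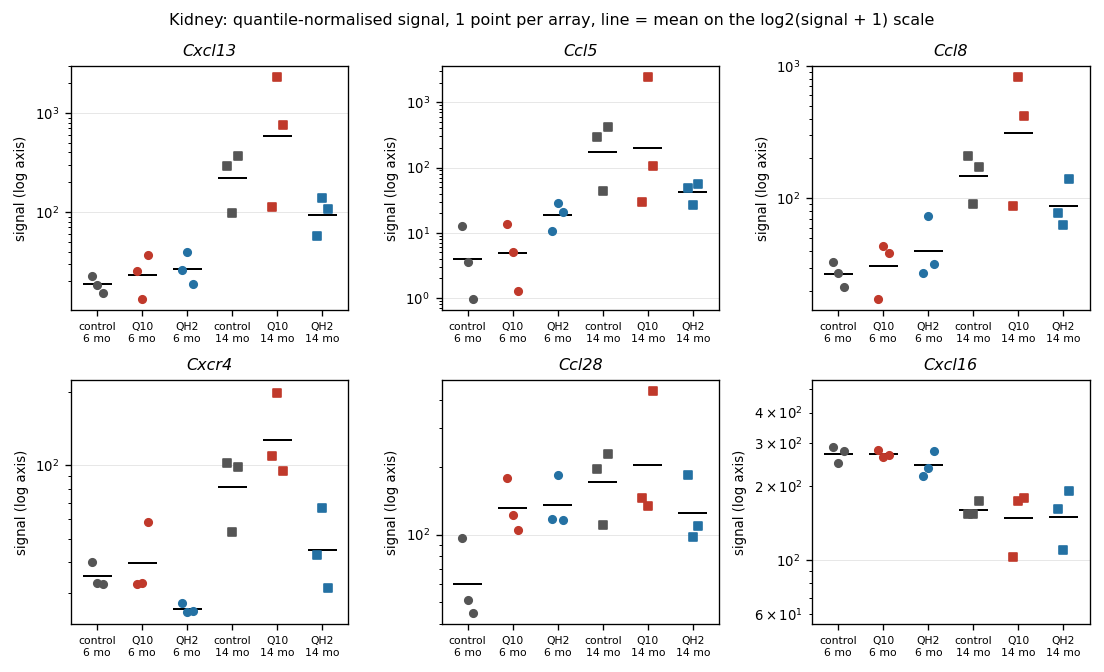
Kidney signals of Cxcl13, Ccl5, Ccl8, Cxcr4, Ccl28 and Cxcl16, drawn as for liver, 1 point per array on a log axis with a line at each group's mean of log2(signal + 1). On control and on Q10 all 14-month squares of Cxcl13 lie above the 6-month circles, and those of Cxcl16 lie below, while Cxcl13 on QH2 reaches only 57.0 to 138 at 14 months.

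On Q10 the kidney change with time took in more members, 16 higher and 4 lower of 45, but 28.2% of all probe sets were called here, 12.5% higher and 15.8% lower. Cxcl13 went from 25.3, 13.2 and 37.3 to 114, 2319 and 764 (4.60 ± 0.74, limma adjusted p = 0.00028). Ccl8 (3.30 ± 0.60), Cxcr4 (1.65 ± 0.32), Ccl5 (5.07 ± 1.2), Cxcr5 (2.27 ± 0.57) and Cxcl9 (3.70 ± 0.93) rose and held in 6 of 6 fits with 1 array left out. Of the Cxcr3 axis, Cxcl9, Cxcl10 (1.60 ± 0.59), Cxcl11 (1.52 ± 0.54) and Cxcr3 (1.68 ± 0.46) all rose on Q10, and so did the CC receptors Ccr1 (1.52 ± 0.42), Ccr2 (1.96 ± 0.64) and Ccr6 (1.72 ± 0.46), and Ccl9 (1.09 ± 0.40). Cxcl9 and Ccr2 were called at 1 probe set each. Cxcl14 fell at both probe sets (-0.84 ± 0.26 and -1.51 ± 0.32), as did Cxcl16 (-0.87 ± 0.20 and -0.88 ± 0.20). Ccr1, Ccr2, Ccr6, Cxcl10, Cxcl11 and the brighter Cxcl14 probe set were lost without Q10 14-month array 2, the highest array for Ccl5 (29.3, 2436 and 107), and Ccl9 without array 3. Of the 6-month arrays, leaving out any ended the calls of Cxcl10 and Cxcl11, array 1 that of Ccr1, array 3 that of Ccr2, array 2 or 3 that of Ccl9 and array 1 or 2 that of Cxcl14, and Cxcl10 and Cxcl14 were lost without 14-month array 3 too. The count ran from 13 to 24, and with the values as deposited 94.6% of all calls were higher, against 44.2%.

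On QH2 only 2 of 45 kidney probe sets were called over time (10.2% of all; 6.32% higher, 3.84% lower). Ccl12 went from 2.37, 16.4 and 1.48 to 31.5, 14.9 and 12.9 (1.88 ± 0.58, limma adjusted p = 0.0461), with overlapping groups, and was called in 1 of 6 fits, lost without QH2 6-month array 1 or 3 or any 14-month array. Cxcl16 went from 220, 238 and 277 to 161, 109 and 190 (-0.70 ± 0.20, 0.0295), lost without 6-month array 2 or 3 or 14-month array 2. Cxcl13 read 25.9, 39.4 and 18.7 at 6 and 57.0, 138 and 107 at 14 months, without overlap and without passing. Ccl27a (0.43 ± 0.16, limma adjusted p = 0.106) and a Cxcl1 probe set (0.53 ± 0.21, 0.124) followed. Whether the change with time differed between the diets was tested directly: by limma 0 of 45 were called for Q10 against control (0.0074% of all; 1 at an unadjusted p under 0.05) and 0 for QH2 against control (0%; 6). The smallest p values of the first were those of Ccr1 (1.29 ± 0.59, adjusted p = 0.681), Cxcl1 (0.66 ± 0.36), Cxcl10 (1.43 ± 0.83) and Ccl27a (-0.40 ± 0.23). Those of the second belonged to Ccl28 (-1.61 ± 0.57, 0.43), a dimmer Cxcl1 probe set (0.84 ± 0.30), Ccl5 (-4.00 ± 1.7) and Cxcl11 (-1.75 ± 0.76). Of all calls on QH2 62.2% were higher, and 98.6% with the values as deposited.

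In kidney too B cell, macrophage and T and NK cell markers moved along, while neutrophil markers did not on control. Summed B cell markers read 99.3 to 116 at 6 months and 386 to 1488 at 14 months on control, 346 to 2955 on Q10 and 146 to 422 on QH2 at 14 months. Macrophage markers summed to 2257 to 2619 at 6 and 2584 to 5902 at 14 months on control, and T and NK cell markers to 201 to 262 and 322 to 940. On control 5 of 8 B cell markers tested, 2 of 13 macrophage markers and 2 of 12 T and NK cell markers rose. Of all probe sets tested 4.72% rose and 4.67% fell on control, also for the lists below. On Q10 the macrophage sum was 3505, 14787 and 7910 at 14 months against 2752 to 3045 at 6, and the T and NK cell sum 232, 3113 and 485 against 192 to 342. On Q10 8 of 13 macrophage markers, 6 of 8 B cell markers and 6 of 12 T and NK cell markers rose over time, and 1 of the last fell. Of all probe sets 12.5% rose and 15.8% fell there. On QH2 at 14 months the macrophage and the T and NK cell sums were 2493 to 3268 and 258 to 319. There 5 of 13 macrophage and 1 of 8 B cell markers were lower than on Q10, as were 2.06% of all probe sets. Control array 2 was again the lowest of the 14-month controls in all 3 sums, Q10 array 2 was the highest of its group, and the part of the markers in these changes was not tested. The 9 neutrophil markers summed to 85.1 to 90.2 at 6 and 77.0 to 117 at 14 months on control, with overlap. On Q10 they summed to 114, 172 and 499 at 14 months against 84.8 to 123 at 6. Of 24 signalling genes 3 rose on control, among them Rac2 (2.96 ± 0.59), of 12 adhesion genes 2 rose and Pecam1 fell (-1.14 ± 0.26), and Glycam1, a ligand of L-selectin on vessels that lymphocytes enter, rose by 4.27 ± 1.0. Of 13 inducers Nfkb2 (1.00 ± 0.25) and Ltb, a lymphotoxin subunit of lymphoid tissue (3.70 ± 1.0), rose. Of 8 chemokine family genes under other names none passed by limma, with Ccrl2 at -0.82 ± 0.33.

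No kidney chemokine probe set was called for either form against control. By limma 0 of 45 were called for Q10 at 14 months (0.67% of all; 4 at an unadjusted p under 0.05), 0 for QH2 at 14 months (0%; 4), 0 for Q10 at 6 months (0%; 4) and 0 for QH2 at 6 months (0.192%; 4). The smallest p values on Q10 at 14 months were those of Ccl9 (1.06 ± 0.40, limma adjusted p = 0.263), Ccl27a (-0.43 ± 0.16, 0.265), Ccr1 (0.93 ± 0.42, 0.362) and Cxcr4 (0.64 ± 0.32, 0.418). On QH2 they were those of Cxcr4 (-0.85 ± 0.32), the dimmer Cxcl9 probe set (-2.21 ± 0.88), Ccr6 (-1.05 ± 0.46) and Cxcr3 (-1.03 ± 0.46), each at an adjusted p of 0.836. At 6 months Ccl28 read 96.2, 50.8 and 44.5 on control, 178, 122 and 105 on Q10 and 117, 185 and 116 on QH2 (1.12 ± 0.40 and 1.16 ± 0.40), both sets above the controls and neither past the test (0.999 and 0.307). Cxcl1 was at -0.74 ± 0.25 on Q10 and, at another probe set, -0.75 ± 0.21 on QH2. Ccl12 (1.51 ± 0.58) and Ccl9 (0.84 ± 0.40) on Q10, and Ccl4 (-0.91 ± 0.43) and Cxcl11 (1.06 ± 0.54) on QH2, came next.

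Between the forms, 5 kidney probe sets were lower on QH2 than on Q10 at 14 months and 0 higher (2.06% and 3.98% of all, 6.04% together). Cxcr4 read 42.8, 66.7 and 31.5 on QH2 and 109, 198 and 94.9 on Q10, without overlap (-1.48 ± 0.32, 95% interval -2.15 to -0.82, limma adjusted p = 0.0117). Cxcl10 (-2.23 ± 0.59), Ccr1 (-1.50 ± 0.42), Cxcl13 (-2.63 ± 0.74, 0.0434) and the dimmer Cxcl9 probe set (-3.37 ± 0.88) were lower as well. The Cxcl13 groups overlapped, at 57.0, 138 and 107 against 114, 2319 and 764. All were lost without QH2 array 3, and without Q10 array 2 all but the Cxcl9 probe set, which then fell below the filter. Cxcr4 was called in the remaining 4 of 6 fits. The others were lost also without Q10 array 3, Ccr1, Cxcl13 and Cxcl9 without QH2 array 1, and Cxcl10 and Cxcl9 without QH2 array 2. The count ran from 0 to 17. The Actb ratio was 3.22, 1.64 and 2.37 on Q10 and 2.05, 3.37 and 2.47 on QH2. With this ratio as a covariate the Ccr1 call was lost and the others were kept. At 6 months 0 of 45 were called between the forms by limma (0.292% of all, and 3 members at an unadjusted p under 0.05). In front were Ccl12 (-1.81 ± 0.58, adjusted p = 0.231), Ccl4 (-1.08 ± 0.43), the dimmer Cxcl14 probe set (-0.74 ± 0.32) and Cxcr4 (-0.60 ± 0.32). With the values as deposited 24.2% of all calls at 14 months were higher on QH2, against 65.8%.

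In heart no chemokine probe set was called between diets, and a few macrophage-linked ligands rose with time on Q10. Between 6 and 14 months of Q10 7 of 50 probe sets rose and 1, with several symbols, fell (5.11% and 5.53% of all, 10.6% together). Ccl9 read 97.8, 88.2 and 99.7 at 6 and 130, 227 and 254 at 14 months, without overlap (1.03 ± 0.19, limma adjusted p = 0.00222). Ccl6 went from 142, 193 and 123 to 218, 435 and 572 (1.33 ± 0.27, 0.00421), and Ccl8 from 46.6, 68.8 and 33.7 to 162, 175 and 704 (2.48 ± 0.51, 0.00417). These 3 ligands held in 6 of 6 fits with 1 array left out at their brightest probe sets.

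Ccl5 (1.58 ± 0.50, limma adjusted p = 0.0461) and Cxcr5 (2.15 ± 0.68, 0.0469) rose in heart as well. Cxcr5 read 6.48, 11.9 and 3.54 at 6 and 16.7, 43.4 and 47.2 at 14 months, and its ligand Cxcl13 20.1, 89.2 and 12.1 against 21.5, 34.4 and 469, with overlap. Ccl5 was called in 1 of 6 fits and Cxcr5 in 2 of 6, both lost without Q10 14-month array 2 or 3 and without 6-month array 1 or 3, and Ccl5 also without 6-month array 2. The dimmer Ccl9 probe set was called in 1 of 6, lost like Ccl5. The count ran from 4 to 11. The B cell marker sum in the Q10 hearts of 14 months was 152, 1326 and 2467, against 56.5 to 193 in the other 15 hearts, and the macrophage sum 4482 to 6480 against 3225 to 4991. Arrays 2 and 3, high for Ccl6, Ccl9 and Cxcr5, were high in these sums too, and the part of the markers was not tested.

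By limma 0 of 50 heart probe sets were called over time on control (2.05% of all; 6 at an unadjusted p under 0.05) and 0 on QH2 (2.29%; 3). On control the smallest p values were those of Cx3cl1 (0.96 ± 0.34, adjusted p = 0.148), Cxcl14 (0.59 ± 0.21), Cxcr3 (-0.77 ± 0.30) and Cx3cr1 (-1.13 ± 0.48), and on QH2 those of Cxcl1 (0.63 ± 0.22, 0.159), Cx3cr1 (1.28 ± 0.48), Cxcl17 (1.22 ± 0.50) and Cxcl12 (0.20 ± 0.097). The difference between durations of the diet effect gave 0 for Q10 (0%; 9), with Ccl8 (2.42 ± 0.72, 0.628), Ccl6 (1.27 ± 0.39), Cxcl9 (3.53 ± 1.1) and Ccl9 (0.88 ± 0.27) in front. For QH2 it gave 0 (0%; 2), with Cx3cr1 (2.42 ± 0.68, 0.466), Cxcl1 (0.67 ± 0.32), Cxcr3 (0.84 ± 0.42) and Cxcl9 (2.15 ± 1.1). With the values as deposited the median of all probe sets moved by 0.68 to 0.96 between durations, 99.7% to 99.9% of all calls were higher against 48.0% to 60.7%, and 14, 31 and 14 chemokine probe sets were called on control, Q10 and QH2.

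**Figure D3:**
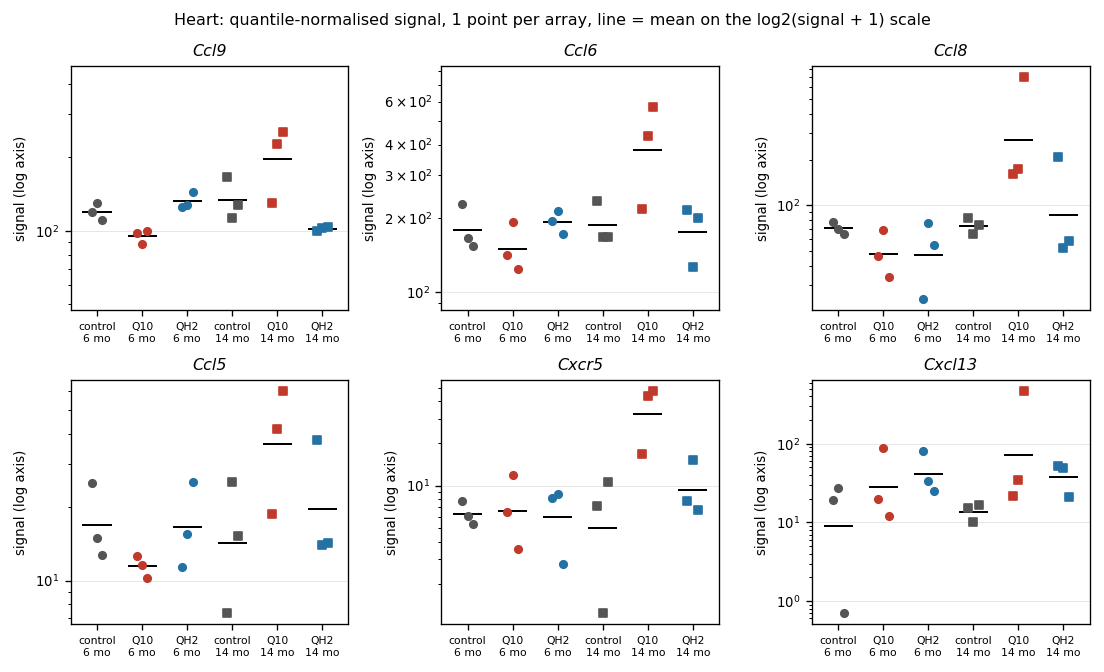
Heart signals of Ccl9, Ccl6, Ccl8, Ccl5, Cxcr5 and Cxcl13, drawn as for liver, 1 point per array on a log axis with a line at each group's mean of log2(signal + 1). For Ccl9, Ccl6 and Ccl8 the 14-month Q10 squares lie above the 6-month Q10 circles, while the control squares overlap with their circles.

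For the diets in heart limma called 0 of 50 in each of 6 comparisons: QH2 against control at 6 months (0% of all; 4 at an unadjusted p under 0.05) and 14 months (0%; 3), Q10 against control at 6 months (0%; 2) and 14 months (0%; 15), and QH2 against Q10 at 6 months (0.0666%; 7) and 14 months (0%; 9). For Q10 against control at 14 months, 9.69% of all probe sets had an unadjusted p under 0.05. Cxcr5 (16.7, 43.4 and 47.2 against 7.11, 1.23 and 10.7; 2.49 ± 0.68), Ccl6 (218, 435 and 572 against 235, 167 and 168; 1.01 ± 0.27) and Ccl8 (162, 175 and 704 against 82.5, 65.1 and 74.7; 1.86 ± 0.51) each had a limma adjusted p of 0.172. For QH2 against Q10 at 14 months the smallest was Ccl9, at 99.6, 103 and 103 against 130, 227 and 254 (-0.93 ± 0.19, 0.0725). The dimmer Ccl6 probe set (-1.27 ± 0.30, 0.0941), Ccl8 (-1.63 ± 0.51) and Cxcl16 (-0.60 ± 0.24) followed. Cxcl9 on Q10 was at 2.64 ± 0.78 against control (0.207). For QH2 against control at 14 months Cxcr3 (0.88 ± 0.30, adjusted p = 0.818), Cx3cr1 (1.29 ± 0.48), Ccr10 (-2.10 ± 0.93) and Cxcl12 (-0.20 ± 0.097) came first.

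At 6 months in heart the microglial and monocyte receptor Cx3cr1 was at -1.13 ± 0.48 on QH2 against control and -1.77 ± 0.48 against Q10. Cxcl12 was at -0.30 ± 0.097 and -0.40 ± 0.097 in the same comparisons (limma adjusted p = 0.523 and 0.193), without overlap. Ccl11, an eosinophil attractant (-1.02 ± 0.36), and Cxcl13 (2.08 ± 0.99) completed the first, and Ccl9 (0.47 ± 0.19) and Cxcl1 (-0.49 ± 0.22) the second. On Q10 against control Ccr1l1 (-1.89 ± 0.61, 0.712), a Cxcl1 probe set (1.28 ± 0.46), a Cxcl14 probe set (-0.39 ± 0.22) and Ccl9 (-0.33 ± 0.19) had the smallest p values.

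In brain no chemokine probe set was called between diets, while about as large a share of them as of all probe sets was called between durations. Between 6 and 14 months 12 of 30 probe sets were called on control (5 higher, 7 lower; 32.8% of all, 16.2% higher and 16.6% lower), 10 on Q10 (3 and 7; 28.6%, 14.5% and 14.2%) and 8 on QH2 (2 and 6; 34.9%, 17.3% and 17.5%). The neuronal ligand Cx3cl1 and Ccl27a fell on each diet, and Cxcr4 and Ccl6 rose on each.

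Cx3cl1 read 2020, 2103 and 2093 at 6 months and 1245, 1383 and 1308 at 14 months on control. On Q10 it went from 1734, 1726 and 1956 to 1246, 1124 and 1283, and on QH2 from 1898, 1798 and 1907 to 1137, 957 and 1036. No 14-month array reached any 6-month array. The falls were -0.66 ± 0.071, -0.57 ± 0.071 and -0.84 ± 0.071 (limma adjusted p = 2.17e-06, 1.47e-05 and 1.46e-07). A second probe set fell by -0.95 ± 0.10, -0.79 ± 0.10 and -0.97 ± 0.10, and all 6 calls held in 6 of 6 fits with 1 array left out. With the values as deposited they kept their direction at the brightest probe set, at -0.20, -0.0049 and -0.31, and were not called, as the median of all probe sets then moved by 0.33 to 0.48. The fall of Cx3cl1 at these probe sets is thus relative to the other genes of these arrays. Another, dimmer Cx3cl1 probe set was called on QH2 alone. It kept that call in 10 of 10 other settings, also with the values as deposited, at -2.37 to -1.11. The receptor Cx3cr1 read 328, 257 and 330 at 6 and 279, 315 and 270 at 14 months on control at its brightest probe set, with overlap. A dimmer Cx3cr1 probe set fell on control (-0.57 ± 0.20, limma adjusted p = 0.0357), in 2 of 6 fits, lost without 6-month array 1 or 2 or 14-month array 1 or 3.

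The start region of Cx3cl1 is shown since this ligand had the smallest p of all brain members. It lies at chr8:94771930-94772179, plus strand, GRCm38.p6, from RefSeq, and holds none of the motifs searched above.
Cx3cl1: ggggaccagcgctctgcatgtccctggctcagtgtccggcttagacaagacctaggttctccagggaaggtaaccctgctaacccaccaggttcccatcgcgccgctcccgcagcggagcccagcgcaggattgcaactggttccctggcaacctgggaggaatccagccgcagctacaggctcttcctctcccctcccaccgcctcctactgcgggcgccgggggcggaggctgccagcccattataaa

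Ccl27a fell on control, Q10 and QH2 by -0.63 ± 0.099, -0.67 ± 0.099 and -0.72 ± 0.099 (limma adjusted p = 0.000119, 8.15e-05 and 2.75e-05), from 648, 823 and 713 to 434, 424 and 560 on control, in 6 of 6 fits for each. With the values as deposited the differences were -0.18, -0.096 and -0.18 and none was called (limma adjusted p = 0.567, 0.752 and 0.533), so this fall too is relative to the other genes. In the RefSeq table Ccl27a overlaps with Il11ra1, and 2 chemokine probe sets with several symbols fell alongside on each diet, and what neighbouring genes add to its signal was not tested. Cxcr4 read 10.5, 9.69 and 15.9 at 6 and 28.1, 33.1 and 27.5 at 14 months on control, below the filter threshold of 19.1 at 6 months. It rose by 1.26 ± 0.28, 1.02 ± 0.28 and 1.10 ± 0.28 (limma adjusted p = 0.00239, 0.0116 and 0.00568), again in 6 of 6 fits. Ccl6 rose by 0.84 ± 0.19, 0.50 ± 0.19 and 0.58 ± 0.19, held on control, was lost in each of 6 fits on Q10, and on QH2 was lost without 6-month array 3 or 14-month array 2.

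The ligand of Cxcr4, Cxcl12, rose on Q10 from 283, 193 and 203 to 352, 778 and 442 (1.14 ± 0.20, limma adjusted p = 0.000439), in 6 of 6 fits, and on control from 253, 193 and 209 to 337, 341 and 282 (0.56 ± 0.20, 0.0435), in 2 of 6. The control call was lost without 6-month array 2 or 3 or 14-month array 1 or 2. Its second bright probe set, at 217, 243 and 216 against 188, 248 and 214 on Q10, did not pass. Cxcl13 on control went from 19.1, 3.50 and 17.5 to 42.8, 35.4 and 32.1 (1.66 ± 0.46, 0.00986), lost without 6-month array 2. Ccl17, a ligand of Ccr4, rose on control (1.01 ± 0.32) and 1 Ccl25 probe set fell (-1.02 ± 0.33), and both were lost without 6-month or 14-month array 1, Ccl17 also without 6-month array 2. On Q10 Ccl28 (-0.72 ± 0.22) was lost without array 3 of either duration, and Ccr6 (-0.60 ± 0.21) was called in 1 of 6 fits, the fit without 6-month array 3. The counts ran from 8 to 11, 7 to 8 and 7 to 10.

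**Figure D4:**
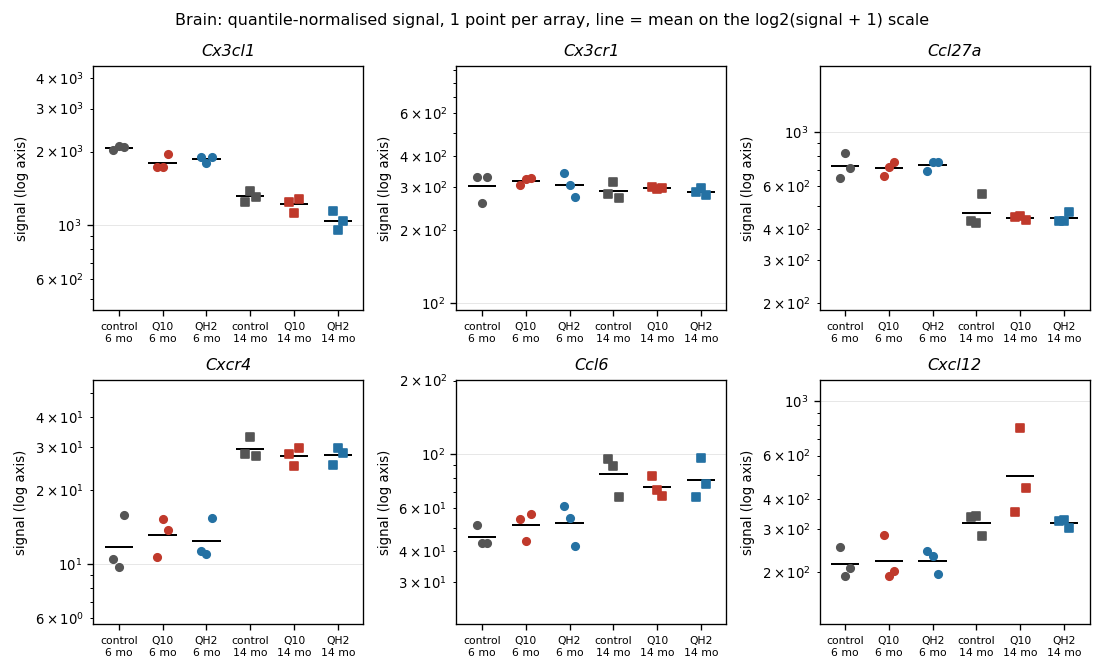
Brain signals of Cx3cl1, Cx3cr1, Ccl27a, Cxcr4, Ccl6 and Cxcl12, drawn as for liver, 1 point per array on a log axis with a line at each group's mean of log2(signal + 1). The 14-month squares of Cx3cl1 lie at 957 to 1383 and the 6-month circles at 1726 to 2103, and the squares of Cxcr4 lie above its circles.

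The summed macrophage markers, which microglia share, ran from 3015 to 3627 at 6 and 3340 to 4024 at 14 months, with overlap. On control, where 32.8% of all probe sets were called, 6 of 12 macrophage markers tested rose and 1 fell, and their part in the rise of Ccl6 and Cxcr4 was not tested. Of 9 B cell and 14 T and NK cell markers 1 and 2 passed the filter. Of 21 signalling genes 2 rose and 5 fell on control, near that share of all, with Rgs16, a brake on G proteins, at 2.48 ± 0.36 and the arrestin Arrb2, which shuts off chemokine receptors, at -0.48 ± 0.12. Of 9 adhesion genes Vcam1 rose (0.68 ± 0.13), and of 10 inducers none passed by limma. Of all calls over time 49.3% to 50.6% were higher, and 81.5% to 96.5% with the values as deposited.

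Between diets limma called 0 of 30 brain probe sets in each of 6 comparisons: QH2 against control at 6 (0% of all; 3 at an unadjusted p under 0.05) and 14 months (0.0111%; 6), Q10 against control at 6 (0%; 5) and 14 months (0%; 1), and QH2 against Q10 at 6 (0%; 1) and 14 months (0%; 4). The smallest p was that of Cx3cl1 on QH2 at 14 months, with 1137, 957 and 1036 against 1245, 1383 and 1308 on control. The groups did not overlap, the difference was -0.33 ± 0.071 (95% interval -0.48 to -0.18), and limma's adjusted p was 0.221. Cxcl12 on Q10 at 14 months was 0.63 ± 0.20 above control (0.801), and QH2 stood at -0.63 ± 0.20 against Q10 (0.80), without overlap in each. Ccl28 on QH2 was 0.53 ± 0.22 above control and 0.57 ± 0.22 above Q10, and the dimmer Ccl25 probe set 0.75 ± 0.33 above control. Ccl8 on QH2 was at -0.89 ± 0.65, and Ccl4 on QH2 at 0.38 ± 0.27 against Q10. On Q10 a Cx3cl1 probe set (-0.17 ± 0.10), the dimmer Ccl25 probe set (0.48 ± 0.33) and Cxcl17 (-0.55 ± 0.41) followed Cxcl12.

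At 6 months in brain the smallest p was that of Ccl17 on QH2 (1.15 ± 0.32, limma adjusted p = 0.315), before a Cx3cl1 probe set (-0.26 ± 0.10), Cxcl13 (0.80 ± 0.46) and Ccl8 (0.97 ± 0.65). On Q10 the same Cx3cl1 probe set was at -0.33 ± 0.10 (0.723), Ccr6 at 0.49 ± 0.21, Ccl17 at 0.68 ± 0.32 and Cxcl13 at 0.94 ± 0.46. Between the forms Ccr6 (-0.53 ± 0.21, 0.563), Ccl25 (0.62 ± 0.34), the dimmer Ccl9 probe set (0.55 ± 0.32) and Cxcl16 (-1.03 ± 0.62) came first. The difference between durations of the diet effect gave 0 by limma for Q10 (0%; 0 at an unadjusted p under 0.05) and 0 for QH2 (0.0296%; 2). Cxcl12 (0.59 ± 0.29, adjusted p = 0.979) led the first, with Cxcl13 (-1.24 ± 0.65), Ccl9 (-0.33 ± 0.21) and Ccr6 (-0.45 ± 0.30), and Ccl17 (-1.37 ± 0.46, 0.564) the second, with Ccl25 (-1.07 ± 0.48), Ccl8 (-1.86 ± 0.92) and Cx3cl1 (-0.18 ± 0.10).

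Last, the Q10 effect at 14 months in each tissue was set against the mean of the other 3 in the fit over 72 arrays. For liver 6 of 39 chemokine probe sets exceeded the other tissues and 0 fell short (4.49% and 2.16% of all, 6.65% together): both Cxcl13 (4.47 and 4.89), Ccl5 (4.30, limma adjusted p = 0.00805), both Ccl6 (1.67 and 2.45) and 1 Cxcl16 probe set (1.92). The same independence was assumed here, while B cell marker sums on Q10 at 14 months were low in array 1 and higher in arrays 2 and 3 of liver (273, 3757 and 1051), kidney (346, 2955 and 2408) and heart (152, 1326 and 2467). Without the arrays of number 2 or of number 3 none of them was called, without number 1 all but Cxcl16 were, and the count ran from 0 to 9. By limma 0 of 39 were called for kidney (0.0074% of all; 1 at an unadjusted p under 0.05), heart (0.0518%; 1) and brain (0.0037%; 10) with Q10, and 0 for liver (0.204%; 2), kidney (0%; 4), heart (0.0555%; 2) and brain (0.0074%; 0) with QH2.

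**Figure D5:**
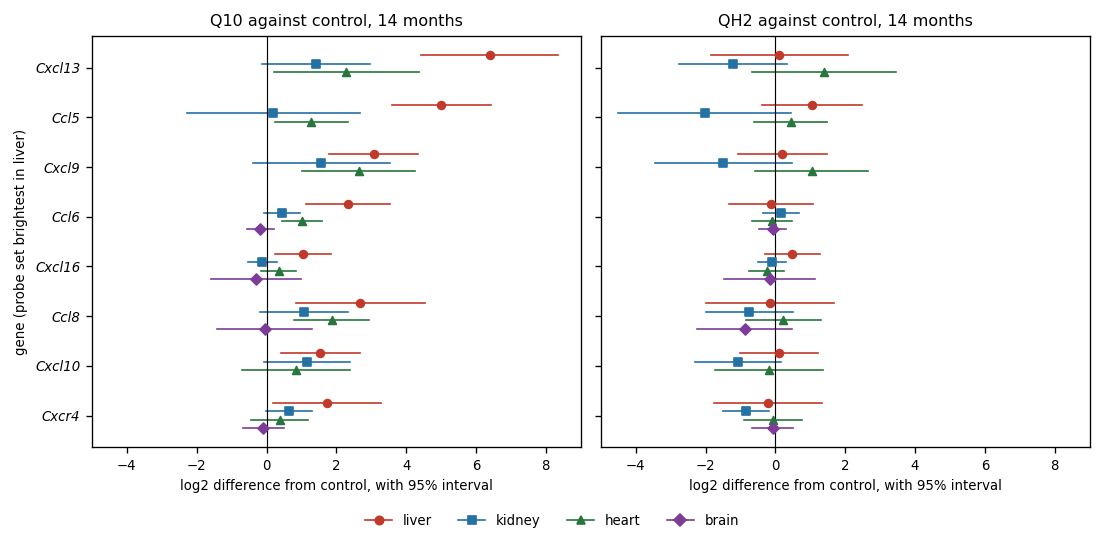
Difference from control at 14 months in log2(signal + 1) with its 95% interval for 8 chemokine genes in 4 tissues, Q10 on the left and QH2 on the right, with no point where a gene was not tested. Cxcl13, Ccl5 and Cxcl9 on Q10 in liver sit at 6.39, 5.01 and 3.07, and on QH2 no interval marks a called difference.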

How the data were processed

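Total RNA of 4 tissues was labelled and hybridised to 1 array per mouse and tissue, per the labels' protocols. The deposited table holds the authors' intensity per probe set on a linear scale. GCOS, Affymetrix scanner software, is named in the submitters' processing notes. For its version and the step that summarised probes, the sources used here give nothing. Quantile normalisation, log2 after adding 1, and limma 3.58.1 in R 4.3.3 with an intensity trend and Benjamini-Hochberg adjustment were applied to each tissue, with 6 group means, to the 27022 of 45037 probe sets above the 40th percentile of mean signal. The 64 control probe sets were left out.

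Gene symbols came from the platform annotation, where 34945 probe sets have 1 symbol, 932 several and 9160 none. The members and lists were chosen with earlier results of these data known. Every called member was named, and where fewer than 4 were called, the 4 genes with the smallest p. A gene stands by its brightest tested probe set unless stated. The 3 mice of a group are separate animals per the series design. The same number in 2 groups is not stated to pair mice, and no comparison had all 3 same-number correlations above 0.1. An exact permutation test of 3 arrays against 3 cannot go below p = 0.1, so limma's test across all probe sets was used. The fit was also run on simulated data in which each probe set had the same spread in every group. The liver Q10 arrays at 14 months varied more, with correlations of 0.844 to 0.935 between arrays against 0.980 to 0.987 on control. The simulation therefore cannot speak to the calls of that group. The NF-kappa B consensus shown was set in place of the looser spelling after the files were seen, and both are reported. Alternatives were the normalisation, offset, filter, trend, samples fitted, block, Actb ratio, array weights and arrays left out. The number of arrays limits the precision.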

Additional observations from a re-analysis of the deposited data

Results flagged for a closer look

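In liver the Q10 effect at 14 months differed from that at 6 months, by limma's interaction term, for Ccl5 (5.615 on the log2 scale, adjusted p = 0.00538), for both probe sets of Cxcl13 (5.64 and 6.04, adjusted p = 0.0181 and 0.0218) and for Cxcl9 (3.44, adjusted p = 0.042). In 12 fits with 1 array left out the calls were kept in 12, 9, 7 and 3, in the order given. All 4 were lost with the Actb ratio as a covariate (Ccl5 at 4.14, adjusted p = 0.336) and without Q10 14-month arrays 2 and 3, and both Cxcl13 probe sets and Cxcl9 were lost without the intensity trend and with only the groups compared.

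The Q10 effect at 14 months was larger in liver than the mean of the other 3 tissues, by limma over 72 arrays, for Cxcl13 (4.47 and 4.89, adjusted p = 0.000499 and 0.00168), Ccl5 (4.30, 0.00805), Ccl6 (1.67 and 2.45, 0.00835 and 0.00897) and Cxcl16 (1.92, 0.011). This fit took the 4 tissues of a mouse as independent. All 6 calls were lost without the arrays of number 2 and without those of number 3.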

How the results depend on the processing

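Counts are of chemokine probe sets called. Of called values, those still called were 79 of 105 with the values as deposited, 95 of 99 with arrays scaled to their 75th percentile, 101 of 105 with an offset of 16, 84 of 105 without a filter, 76 of 76 with a 60th percentile filter, 67 of 99 without the trend, 59 of 99 with the Actb ratio, 96 of 99 with array weights and 49 of 99 with only the groups compared. With the replicate block 92 of 105 were still called, but the shared numbers do not pair the mice.

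In liver the counts for 14 against 6 months on Q10 (12), Q10 against control at 14 months (7), QH2 against Q10 at 14 months (13) and the difference between durations of the Q10 effect (4) became 1, 0, 0 and 0 with the Actb ratio, 24, 25, 25 and 14 with array weights, and 0, 0, 0 and 1 with only the groups compared. Without Q10 14-month arrays 2 and 3, a choice made after seeing the data, all 4 were 0, and 0 of 33 such values stayed called. Without the trend the first became 6 and the last 1. From 0, 14 against 6 months became 1 on QH2 with weights and 1 on control with only the groups compared. Ccl27a for QH2 against Q10 at 14 months turned from 0.99 to -0.0023 with the Actb ratio.

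In kidney QH2 against Q10 at 14 months (5) became 1 as deposited, 3 without a filter, 2 without the trend, 2 with the replicate block, 8 with the Actb ratio, 15 with weights and 0 with only the groups compared. On QH2 14 against 6 months (2) became 6 as deposited, 5 scaled to the 75th percentile, 1 without a filter, 1 at the 60th percentile, 0 without the trend, 1 with the replicate block, 5 with weights and 1 with only the groups compared. On control (10) it became 6 without a filter and 5 without the trend, and Q10 against control at 14 months (0) became 4 with weights.

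In heart the values as deposited gave 7 for Q10 against control and 2 for QH2 against Q10 at 14 months (both 0), and 14, 31 and 14 for 14 against 6 months on control, Q10 and QH2 (0, 8 and 0). On Q10 it was 5 without a filter and 5 without the trend. Weights gave 7 and 6 for the same diet comparisons. In brain 14 against 6 months became 6 on control and 4 on Q10 as deposited (12 and 10), and 7 on control at the 60th percentile, and QH2 against control at 14 months (0) became 1 with weights. With all 72 arrays normalised together, also chosen after seeing the data, 23 of 24 values between brain durations stayed called. Between tissues the counts without a filter were 50 in kidney, 50 in heart and 70 in brain (31, 33 and 36).

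With 1 array left out the counts in liver ran from 5 to 19, 5 to 16, 4 to 17 and 1 to 13 in the order above. In kidney they ran from 0 to 17 for QH2 against Q10, 0 to 5 for Q10 against control, 1 to 12, 13 to 24 and 0 to 2 for 14 against 6 months on control, Q10 and QH2, and 0 to 1 for QH2 against Q10 at 6 months. In heart they ran from 4 to 11 for 14 against 6 months on Q10, 0 to 8 and 0 to 5 for Q10 against control and QH2 against Q10 at 14 months, and 0 to 3 for the difference between durations of the Q10 effect. In brain they ran from 8 to 11, 7 to 8 and 7 to 10. Without the arrays of 1 number they ran from 32 to 37, 29 to 33, 32 to 34 and 35 to 38 for liver, kidney, heart and brain against the others, and from 0 to 9 in liver and 0 to 3 in brain for the Q10 effect minus that of the other tissues. Cxcl16 for QH2 against Q10 at 6 months in brain, not called at -1.03, ran from -1.61 without QH2 array 3 to 0.12 without QH2 array 1. The causes of these shifts were not tested. Signals near the filter threshold, as for Ccl5 on control, limit how large a fold change can be read.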
